A study of Arabidopsis thaliana with 18 samples.

Results

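Beta-tubulin transcripts were followed through the first hours of deetiolation, the change from dark to light growth. The 9 genes TUB1 to TUB9 of the Arabidopsis beta-tubulin family were taken by their gene identifiers from 34212 genes in all. The rule used no measured values, but earlier results of these data were known when it was set. All 9 were among the 16747 genes tested, a set that leaves out any gene with 2 or 3 empty libraries (0 counts) at some time point. Wild-type Col-0 seedlings, grown in darkness for 5 days on medium without sucrose, were collected whole either in the dark or after 15, 30, 60, 150 or 360 min of white light (WL). Each of these 6 groups held 3 libraries, 18 in all, and the 3 are described as biological replicates. Dark seedlings were sampled only at the start, so the effect of light and that of elapsed time cannot be told apart. RNA came from whole seedlings, so that less RNA per cell and fewer cells of a type cannot be told apart either.

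Beta-tubulin pairs with alpha-tubulin to form the dimer from which microtubules are built. In growing plant cells, microtubules beneath the plasma membrane guide the deposition of cellulose and so set the direction in which a cell can expand. Etiolated hypocotyls elongate rapidly and light slows this growth. TUB1 is known from earlier work as a beta-tubulin gene whose transcript falls in light. The proteins of the family are nearly alike along most of their length and differ mainly in the short acidic tail at the carboxyl end, a surface that microtubule-associated proteins touch.

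The genes lie on 4 of the chromosomes of the TAIR10.1 assembly (RefSeq annotation, matched for all 9 by locus identifier). TUB1 (AT1G75780) is on chromosome 1 at 28451138-28453820 and TUB5 (AT1G20010) on chromosome 1 at 6937719-6940832, both on the minus strand. TUB7 (AT2G29550) is on the minus strand of chromosome 2 at 12643917-12646057 and TUB9 (AT4G20890) on the plus strand of chromosome 4 at 11182092-11184559. The other genes are on chromosome 5. TUB6 (AT5G12250, 3960938-3963624) and TUB4 (AT5G44340, 17859136-17861150) are on the minus strand and TUB8 (AT5G23860, 8042853-8044934) on the plus strand. TUB2 (AT5G62690, 25181296-25183811) and TUB3 (AT5G62700, 25184258-25186777) are neighbours on the plus strand, with 446 bases between them. TUB6 has 4 annotated exons and each of the other genes has 3, and the coding sequences are 1335 to 1353 bases long.

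Over whole coding sequences, the 36 pairs of genes were 78.7% to 97.6% identical (median 80.4%). Over the last 60 coding bases, which encode the tail, identity was 55.0% to 96.7% (median 61.8%). These ends are shown because they tell the genes apart, with the stop codon in capitals.
TUB1: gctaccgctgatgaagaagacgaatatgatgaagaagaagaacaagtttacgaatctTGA
TUB2: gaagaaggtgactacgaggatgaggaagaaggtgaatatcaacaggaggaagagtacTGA
TUB3: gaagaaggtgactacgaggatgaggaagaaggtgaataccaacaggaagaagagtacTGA
TUB4: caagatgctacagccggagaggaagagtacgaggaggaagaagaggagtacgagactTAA
TUB5: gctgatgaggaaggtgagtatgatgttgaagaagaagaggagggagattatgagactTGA
TUB6: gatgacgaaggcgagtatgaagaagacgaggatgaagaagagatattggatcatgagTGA
TUB7: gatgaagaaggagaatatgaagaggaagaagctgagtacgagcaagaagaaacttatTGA
TUB8: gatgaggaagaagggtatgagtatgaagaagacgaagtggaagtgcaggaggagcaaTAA
TUB9: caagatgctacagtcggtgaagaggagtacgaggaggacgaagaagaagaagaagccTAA
All 9 tails are rich in gaa and gag, the codons of glutamate. TUB2 and TUB3 were the most alike, with 32 mismatches in 1353 coding bases and an identical stretch of 227 bases (coding bases 52 to 278). Coding bases 508 to 567 show how few letters separate them, with the 4 that differ in capitals.
TUB2: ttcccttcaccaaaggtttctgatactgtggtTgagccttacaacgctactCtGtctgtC
TUB3: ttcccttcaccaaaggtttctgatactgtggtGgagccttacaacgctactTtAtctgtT

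Of all 50-base windows of the annotated transcripts of TUB2, 22.3% also occurred in TUB3, and of those of TUB3, 22.0% occurred in TUB2, so that reads from these stretches could have been divided between both genes. TUB4, TUB5 and TUB8 shared 0.057%, 0% and 0.054% of their windows with any other gene. TUB1 shared 29.2% of its windows, counted without regard to strand, with AT1G75785, which overlaps it by 639 bases on the opposite strand. TUB7 shared 20.7% with AT2G29540 and TUB9 shared 19.1% with AT4G20900, both on the opposite strand. The kallisto options that the study's methods list include none for strand, so reads of these overlapping pairs cannot be told apart with certainty. AT4G20900 was assigned 1 count over the 150 min libraries and 0 in every other group, and the part of its reads in the TUB9 values was not tested.

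Library totals ranged from 3577432 to 16156302 estimated counts. The 2 plastid 23S ribosomal RNA genes took 3.37% to 83.9% of a library, and 1999671 to 10821472 counts remained outside them. Counts of the 9 beta-tubulin genes summed to between 2756 and 23872 in a library. Replicate 3 of the 60 min group stood apart, with the smallest total and the smallest plastid 23S share, and 4 libraries had a plastid 23S share above 75% (60 min replicate 1, 150 min replicate 3, and 360 min replicates 1 and 2). Of 6 genes with a known light response, such as HY5 and IAA19, all 6 were called over the time course, with 5 higher and 1 (IAA19) lower at 360 min. Of the markers of root, shoot and cotyledon, and dividing cells, 3 of 4, 4 of 4 and 5 of 5 could be tested and 0 were called over the time course or in any light group, while 0 of 3 flower and pollen markers had enough counts to test and their summed level was 0 to 17.8 normalized counts.

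Normalized counts are gene counts scaled to a common library size by the TMM method, which leaves out genes with extreme ratios. Divided by the effective transcript length, they can be compared between genes. In the dark, TUB4 had the highest level, with 2375 ± 1043 normalized counts per 1000 bases (SD, n = 3). TUB6 followed at 1144 ± 137, TUB2 at 1032 ± 180, TUB3 at 901 ± 160 and TUB5 at 832 ± 208 on this scale. TUB9 (587 ± 157), TUB8 (391 ± 121), TUB7 (367 ± 24.2) and TUB1 (130 ± 76.4) were lower. Of the neighbours in this order, the libraries of TUB4 and TUB6 did not overlap, nor did those of TUB7 and TUB1, and each other neighbouring pair overlapped. The place of TUB7 depends on its effective length, and so on how reads were divided between its transcripts. In shares of the family's estimated counts, not divided by length, TUB7 held 2.05% to 3.22% in the dark. TUB8 then lay above it (4.56% to 5.63%), and TUB1 (0.75% to 2.09%) overlapped it.

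At 360 min of WL, TUB4 was still the highest, with 1586 ± 224 normalized counts per 1000 bases (SD, n = 3), and TUB1 the lowest, with 13.8 ± 12.0. Between them stood TUB5 (998 ± 488), TUB2 (991 ± 372), TUB9 (801 ± 360), TUB3 (696 ± 65.4), TUB6 (550 ± 36.7), TUB7 (445 ± 63.6) and TUB8 (179 ± 34.7). TUB6 had moved from the second to the sixth place. The libraries of TUB3 and TUB6, of TUB7 and TUB8, and of TUB8 and TUB1 did not overlap, and the other neighbours did. In shares of the family's estimated counts, not divided by length, TUB7 (1.86%, 3.06% and 6.08%) and TUB8 (2.96%, 2.415% and 3.98%) did overlap at 360 min.

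**Figure D1:**
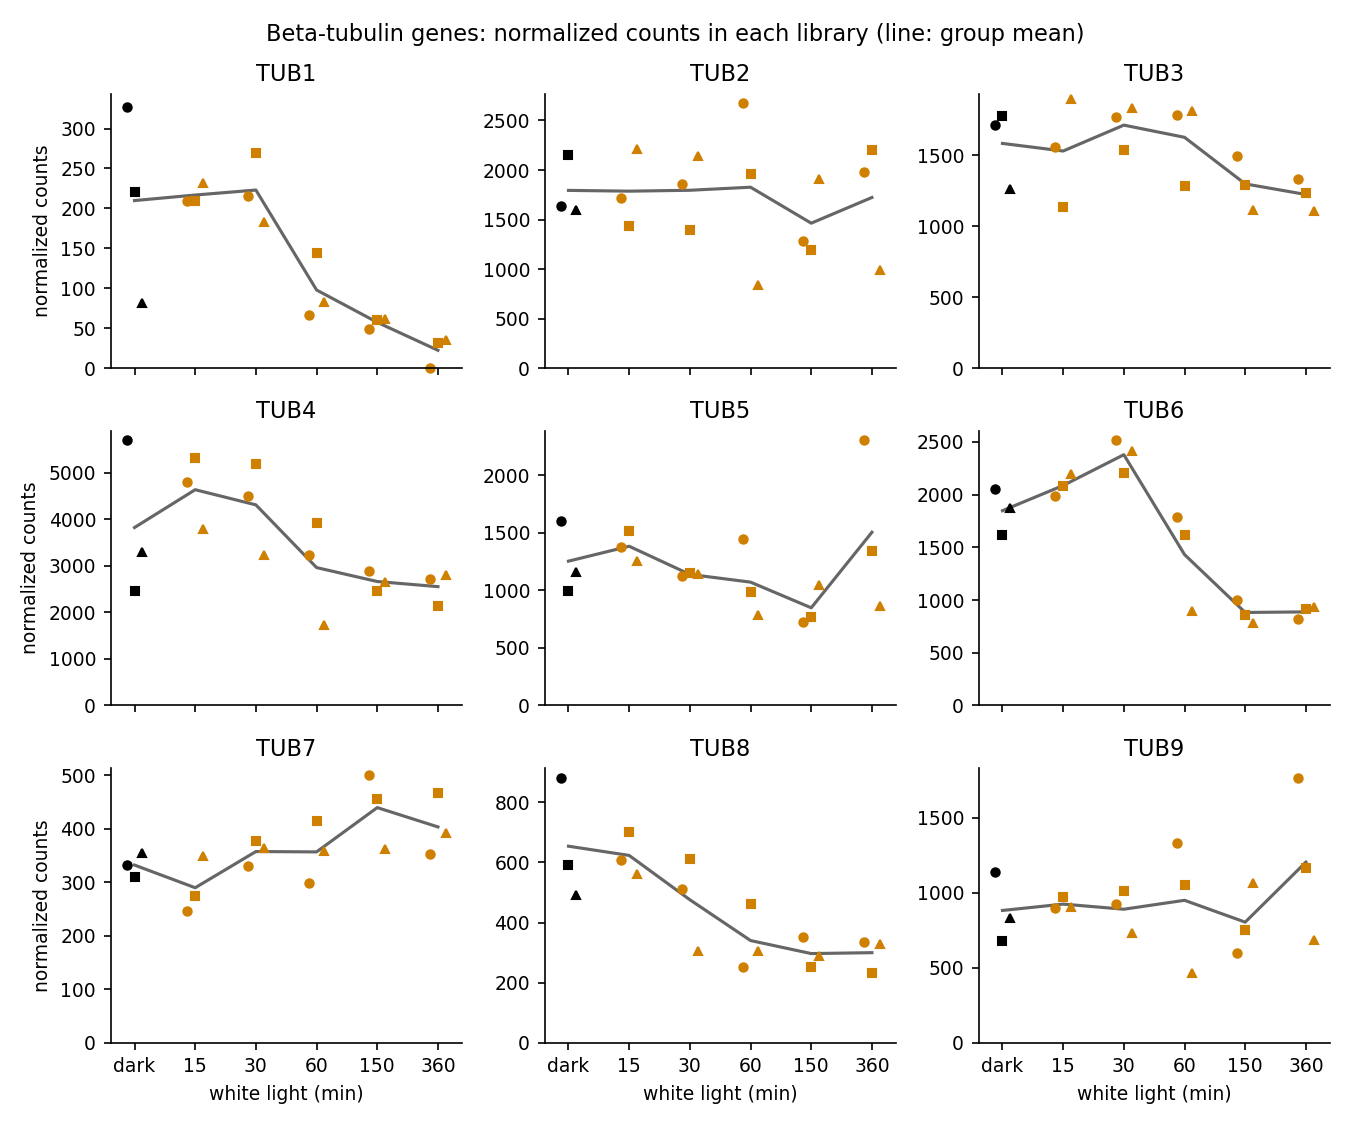
Normalized counts (vertical axes, each starting at 0) of the 9 beta-tubulin genes in the dark (black) and after 15 to 360 min of WL (orange), with the light steps evenly spaced. Circles, squares and triangles are replicates 1, 2 and 3 and the line joins group means; TUB1 goes from 210 in the dark to 22.3 at 360 min, and TUB6 from 1848 to 888.

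Over the time course, 2 of the 9 genes, TUB1 and TUB6, differed between the 6 groups at a Benjamini-Hochberg adjusted p below 0.01 (edgeR's quasi-likelihood test over all genes tested), the threshold used for every call, where 5.02% of all genes tested were called. Their adjusted p-values were 0.00581 and 0.00654, that of TUB8 was 0.0744, and those of the other 6 genes were 0.493 or more. The calls were close to the threshold: when each library was left out in turn, TUB1 passed in 6 of 18 fits and TUB6 in 5 of 18, with edgeR adjusted p-values up to 0.0182 and 0.0264. Both were lost with libraries scaled by their totals, plastid RNA included (0.899 and 1). With a term for the replicate number in the edgeR fit both were lost too (adjusted p = 0.0166 and 0.0179). Without the 4 libraries of high plastid 23S share the values were 0.0228 and 0.0576, in a fit that keeps 1 library at 360 min and 2 each at 60 and 150 min and takes the spread from all groups.

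TUB1 was the gene with the lowest level and the one called against the dark. Its normalized counts were 327, 220 and 81.6 in the dark libraries, then 209, 209 and 232 at 15 min and 216, 270 and 183 at 30 min. At 60 min they were 66.6, 144 and 83.0, at 150 min 49.4, 60.5 and 62.0, and at 360 min 0, 31.8 and 35.1. The libraries at 150 and 360 min all lay below every dark library, while those at 15, 30 and 60 min overlapped the dark range. The dark libraries themselves spread widely, since replicate 3 held less than the other two. Behind the values at 360 min stood 0, 9 and 59 counts, and the 0 came from a library in which 3 counts would equal 11.9 normalized counts.

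Relative to the dark, the log2 fold changes of TUB1 at the first 4 light times, in order, were 0.04, 0.08, -1.10 (SE 0.59) and -1.88 (SE 0.60), the last with an edgeR adjusted p of 0.0841. After 360 min it reached -3.11 (SE 0.65), which is 0.116 times the dark level, with an edgeR adjusted p of 0.00304. Thus 1 of the 9 genes was called lower at 360 min, where 0.812% of all genes tested were called lower, and 0 were called higher (3.47% of all genes). The call was lost without dark replicate 1 (log2 fold change -2.64, edgeR adjusted p = 0.0251), dark replicate 2 (0.0104) or 360 min replicate 2 (0.0115). It was also lost with library totals (-3.59, adjusted p = 0.475) and when only the dark and 360 min libraries were fitted (-3.13, adjusted p = 0.0674). In the fit of dark and 360 min alone, 39 of 17820 genes were called lower, against 136 of 16747 in the main fit. Without the 4 libraries of high plastid 23S share, which leaves replicate 3 alone at 360 min, the edgeR value was -2.54 (adjusted p = 0.0411), with the lone library assumed to vary like the other groups. Over all alternatives other than single libraries left out, the log2 fold change ranged from -3.59 to -2.54.

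AT1G75785, the gene on the strand opposite TUB1, had its highest mean at 60 min, and its course was not tested against that of TUB1. Its mean was 63.8 normalized counts in the dark and, in order of the 5 light times, 126, 135, 226, 95.3 and 35.2. It was called at none of the 5 light times (edgeR adjusted p from 0.315 to 1). The part of reads from the shared bases in the TUB1 values was not tested.

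TUB6 had the second highest mean level in the dark and was not below it during the first 30 min. Its normalized counts were 2057, 1617 and 1871 in the dark, 1984, 2079 and 2199 at 15 min, and 2519, 2205 and 2414 at 30 min. The 60 min libraries held 1787, 1616 and 893, those at 150 min 999, 862 and 787, and those at 360 min 820, 914 and 930. All 3 libraries at 30 min lay above the dark libraries, where 5.95% of all genes did so, and all 6 libraries of the last 2 times lay below the dark libraries. Of the 60 min libraries, replicate 3, the one that stood apart, was the lowest.

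In order of the 5 light times, the log2 fold changes of TUB6 were 0.18, 0.36, -0.37 (SE 0.31), -1.07 (SE 0.32) and -1.06 (SE 0.32). The edgeR adjusted p was 0.0541 at 150 min and 0.0408 at 360 min, so that neither passed the threshold. TUB6 passed at 150 and 360 min with DESeq2 (adjusted p = 0.00262 and 0.00309) and with the plastid 23S share as a covariate in edgeR (0.00518 and 0.00435). At 360 min it also passed in edgeR with library totals that leave out plastid 23S (-1.42, adjusted p = 0.0052) and without 60 min replicate 3 (0.00991).

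TUB8, at a lower level, was also below the dark range at the late times. It had 881, 591 and 490 normalized counts in the dark, 609, 699 and 561 at 15 min, and 512, 611 and 304 at 30 min. At 60 min it had 252, 463 and 305, at 150 min 352, 251 and 287, and at 360 min 337, 233 and 330. From 60 min on, every light library lay below every dark library. The log2 fold change was -0.94 (SE 0.36), -1.14 (SE 0.36) and -1.12 (SE 0.36) at 60, 150 and 360 min, with edgeR adjusted p-values of 0.276, 0.0749 and 0.0572, and TUB8 was not called at any time or under any alternative tried at 360 min.

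At 60 min, TUB8 was the 1 gene of the 9 whose 3 light libraries all lay below the dark libraries, where 7.49% of all genes tested did so. At 150 and 360 min the same 3 genes, TUB1, TUB6 and TUB8, did so, where the share of all genes was 10.9% and 11.3%. At an unadjusted p below 0.05, 1, 3 and 3 of the 9 genes were lower at 60, 150 and 360 min (4.54%, 5.81% and 8.67% of all genes), and 0 of the 9 were higher (6.68%, 8.94% and 12.7% of all genes). By edgeR's adjusted p, 0 of the 9 were called at 15, 30, 60 or 150 min in either direction. At 150 min, DESeq2 called 2 lower (TUB1, adjusted p = 0.00699, and TUB6, 0.00262), and edgeR with the plastid 23S share as a covariate called 1 (TUB6, 0.00518). Of the 16747 genes tested, DESeq2 called 216 lower at 150 min and the covariate fit 188, against 94 in the edgeR fit without the covariate. In that last fit, the shares of all genes called lower at 15, 30, 60 and 150 min were 0%, 0%, 0.0478% and 0.561%. The shares called higher were 0%, 0.0836%, 0.8% and 2.2%. Set directly against 15 min, 1 of the 9, TUB1, was called lower at 360 min (0.675% of all genes).

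TUB4, the most abundant member, was not called at any time. Its normalized counts were 5699, 2468 and 3297 in the dark and 2714, 2138 and 2803 at 360 min, so that the groups overlapped. In between, its means were 4633, 4307, 2961 and 2662 in order of time. The log2 fold change at 360 min was -0.58, with a 95% interval from -1.32 to 0.16.

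The tandem pair TUB2 and TUB3 was not called at any time. TUB2 had 1632, 2156 and 1595 normalized counts in the dark and 1981, 2202 and 986 at 360 min, and its most distant libraries were both at 60 min (2680 in replicate 1 and 840 in replicate 3). TUB3 had 1713, 1778 and 1261 in the dark and 1335, 1231 and 1105 at 360 min. Both overlapped the dark range at all 5 light times. After 360 min of WL, TUB2 had a log2 fold change of -0.06 (95% interval -0.85 to 0.73) and TUB3 one of -0.37 (-0.99 to 0.24). With their counts summed into 1 gene, so that the division of shared reads no longer mattered, it was -0.20 (SE 0.34) at 360 min and within -0.29 to 0.05 at all 5 times.

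The remaining genes, TUB5, TUB7 and TUB9, had positive log2 fold changes at 360 min, none of them called. TUB5 had 1602, 998 and 1159 normalized counts in the dark, 729, 768 and 1048 at 150 min, and 2306, 1344 and 862 at 360 min. TUB9 had 1141, 677 and 831 in the dark, 596, 752 and 1067 at 150 min, and 1767, 1164 and 685 at 360 min. Both genes were highest in replicate 1 and lowest in replicate 3 of the 360 min group, the libraries with the highest and the lowest plastid 23S share of that group (83.9% and 24.0%). TUB5 had a log2 fold change of 0.26 at 360 min (95% interval -0.45 to 0.97) and TUB9 one of 0.45 (-0.33 to 1.22). Without the 4 libraries of high plastid 23S share, replicate 3, the lowest of the 3 for both genes, was the 1 library left at 360 min, and the values were -0.50 for TUB5 and -0.32 for TUB9.

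TUB7 had close values in the dark libraries, with 332, 310 and 354 normalized counts. It had 500, 455 and 362 at 150 min, where all 3 libraries lay above the dark libraries (12.5% of all genes did so), and 353, 466 and 391 at 360 min, where the groups overlapped. Its log2 fold change was 0.41 (SE 0.31) after 150 min and 0.28 (SE 0.31) after 360 min. The later value was -0.02 when estimated counts were summed without scaling by transcript length. The 150 min libraries were set against the dark ones only on counts with that scaling. Of the 2 TUB7 transcripts, AT2G29550_ID4 took a mean of 55.3% of the TUB7 TPM in the dark (22.1% to 96.1%) and 76.0% at 360 min (32.7% to 98.9%), ranges too wide to separate the groups. AT2G29540, which overlaps TUB7 on the opposite strand, went from 35.9 to 71.4 normalized counts (edgeR adjusted p = 0.458).

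**Figure D2:**
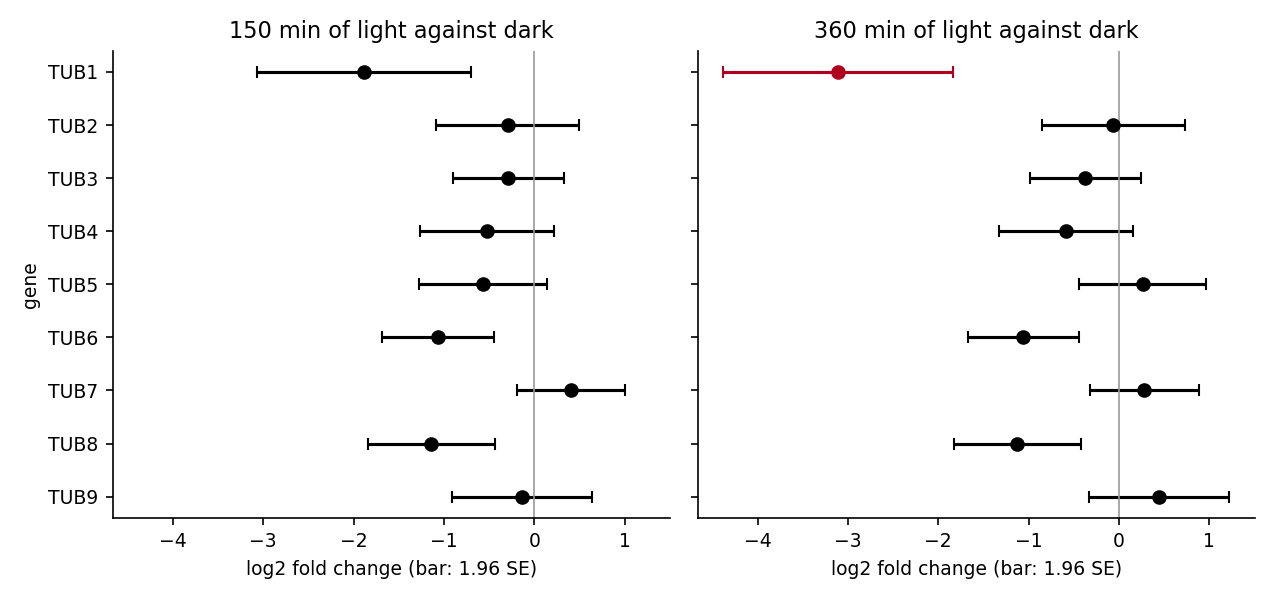
Log2 fold change (horizontal axis) of each gene at 150 min (left) and 360 min (right) of WL against the dark, from edgeR's fit over 18 libraries, with bars for the 95% interval. TUB1 at 360 min, in red, is the 1 called value (-3.11), and the interval also lies below 0 for TUB1 at 150 min and for TUB6 and TUB8 at both times.

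Across the 9 genes, the median log2 fold changes in order of the 5 light times were 0.04, 0.08, -0.23, -0.52 and -0.37. Over all genes tested they were -0.01, -0.02, 0.02, -0.03 and -0.03. The light groups share the dark libraries, so these values are not independent of each other. The summed level of the family was 12379 ± 2603 normalized counts in the dark (SD, n = 3), and 13475 ± 140, 13281 ± 810, 10662 ± 2987, 8752 ± 613 and 9821 ± 1744 in order of the light times. The dark libraries (10814 to 15384) overlapped those at 360 min (8127 to 11612) and lay above those at 150 min (8083 to 9286).

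Between neighbouring time points, 0 of the 9 genes were called by edgeR's adjusted p in any of the 4 steps. At an unadjusted p below 0.05, TUB6 was lower at 60 than at 30 min (log2 fold change -0.73) and lower at 150 than at 60 min (-0.70), and TUB5 was higher at 360 than at 150 min (0.83). In those steps 2.57%, 3.8% and 3.39% of all genes moved in the same direction at this level. Adjusted p-values called 0.0657% of all genes higher at 60 than at 30 min, 0.0299% lower and 0.119% higher at 150 than at 60 min, and 0% in the other steps and directions.

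The share of each gene in the summed TPM of the family is a ratio within a library and so does not depend on how libraries are scaled. The shares of a library sum to the whole, so the share of a gene can rise because others fall. TPM is transcript abundance per length relative to the whole library. TUB1 took 2.10%, 2.03% and 0.727% of the family in the dark libraries and 0%, 0.333% and 0.415% at 360 min. TUB6 took 13.2%, 14.9% and 16.8% in the dark and 6.86%, 9.12% and 11.1% at 360 min. Both genes held a smaller share in every 360 min library than in any dark library.

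TUB8 took 5.46%, 5.26% and 4.25% in the dark and 2.72%, 2.26% and 3.80% at 360 min, with no overlap. TUB9 went the other way, from 7.86%, 6.68% and 8.002% to 15.9%, 12.5% and 8.77%, again with no overlap. Its level in normalized counts overlapped the dark range at 360 min and was not called. For TUB1, TUB6, TUB8 and TUB9 the exact two-sided permutation test on shares gave p = 0.1, the smallest that 3 against 3 libraries allow. After Benjamini-Hochberg adjustment over 8 units the permutation p was 0.2, so that the test could not pass the threshold. TUB2 and TUB3, counted as 1 unit because they share reads, held 25.7% ± 7.02 in the dark and 26.8% ± 4.45 at 360 min (SD, n = 3). TUB4 held 29.7% ± 6.96 and 26.0% ± 6.63, TUB5 10.7% ± 0.727 and 15.4% ± 4.92, and TUB7 4.85% ± 0.949 and 7.30% ± 1.73, each with overlap between the groups.

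**Figure D3:**
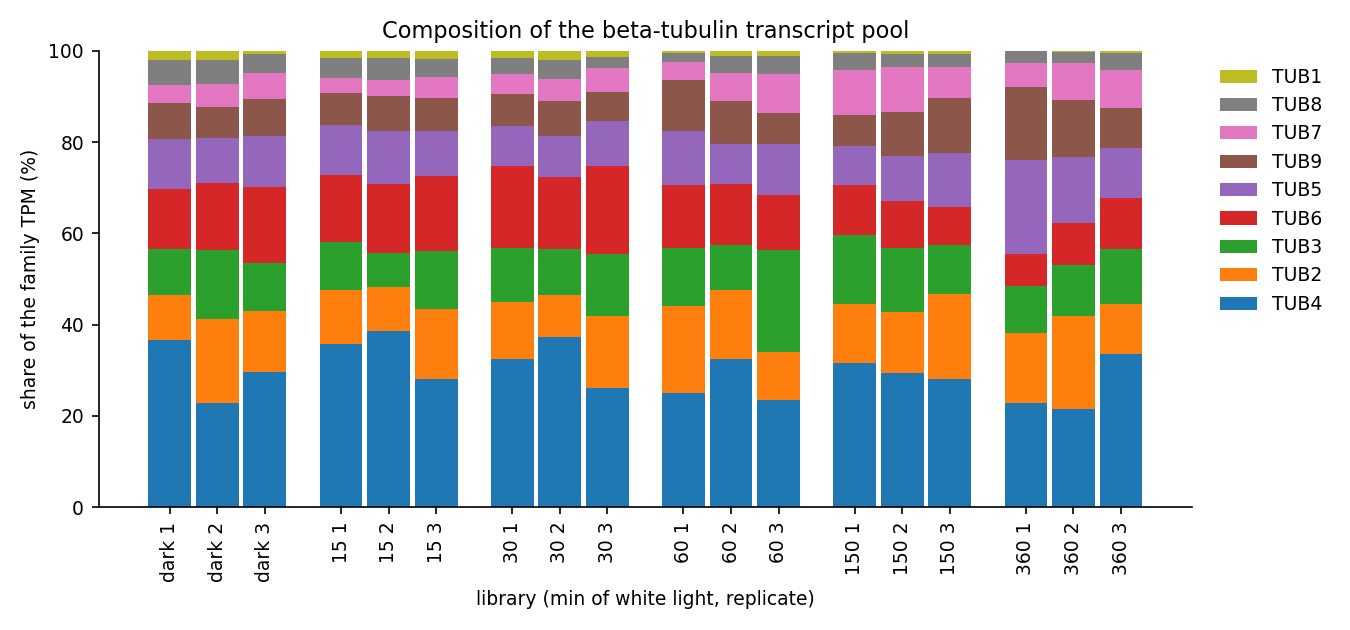
Share of each beta-tubulin gene in the summed TPM of the family (vertical axis, %) in each of the 18 libraries, named by min of WL and replicate. The TUB6 band narrows from a mean of 15.0% in the dark to 9.02% at 360 min and the TUB9 band widens from 7.52% to 12.4%.

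The plastid 23S share varied within every group, so its relation to each gene was computed on deviations from the group means over the 18 libraries. For TUB2 the relation was positive (Pearson's r = 0.871, exact permutation p = 0.0036 within groups, adjusted over 9 genes 0.0324; Spearman's rho = 0.792, exact p = 0.00459, adjusted 0.0413). These adjusted values did not pass 0.01. Without the 2 libraries whose deviation in plastid 23S share lay farthest from the median deviation, r was 0.743. TUB9 gave r = 0.709 (exact permutation p = 0.0415, adjusted 0.187) and rho = 0.556 (exact p = 0.08, adjusted 0.36). The other 7 genes had r between -0.395 and 0.586, with adjusted exact permutation p-values of 0.312 or more. TUB3, whose coding sequence is 97.6% identical to that of TUB2, had r = -0.02. These tests concern the relation only, and whether the plastid share affected the levels of TUB2 and TUB9 was not tested.

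**Figure D4:**
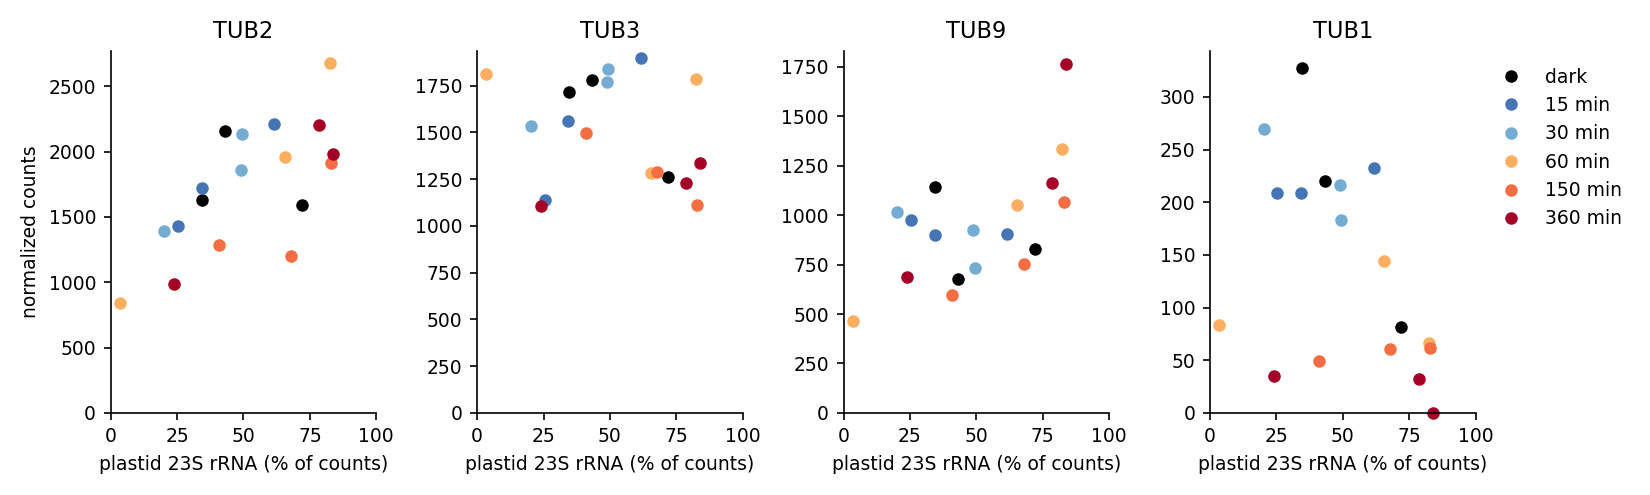
Normalized counts (vertical axes) of TUB2, TUB3, TUB9 and TUB1 against the share of plastid 23S ribosomal RNA in the library (horizontal axes, % of counts), 1 point for each of the 18 libraries, coloured by group. The lowest TUB2 point (840) is the library with 3.37%. The relation within groups had r = 0.871 for TUB2, which did not pass 0.01 after adjustment, and r = -0.02 for TUB3.

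Among the genes themselves, the closest pair over the 18 libraries was TUB5 and TUB9 (Pearson's r = 0.838 of log2 normalized counts, and 0.9 on deviations from group means). TUB4 followed TUB8 (0.786) and TUB6 (0.775). TUB1 and TUB6 had r = 0.736 over all libraries and 0.153 within groups, so that they shared the course over time more than the differences between replicates. TUB2 and TUB3, the neighbours in the genome, had r = 0.248. These values are descriptions over libraries that share depth and plastid RNA content, and no test was made.

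Alpha-tubulin is the other subunit of the dimer, and its 6 genes, TUA1 to TUA6, were all tested. None passed the threshold at any light time (0 of 6, with 2 lower and 0 higher at an unadjusted edgeR p below 0.05 at 360 min, where 8.67% of all genes were lower and 12.7% higher at that level). Their summed level was 14990 normalized counts in the dark (12500 to 16780), 14380 at 150 min (12260 to 16930) and 10650 at 360 min (8746 to 11750), where it lay below every dark library. The median of their log2 fold changes was then -0.69. TUA4 had -0.91 (SE 0.32, edgeR adjusted p = 0.0895), TUA3 -0.83 and TUA2 -0.65, each with all 3 light libraries below the dark ones, as for 11.3% of all genes, and TUA1 had 0.50.

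The genes that nucleate microtubules, fold tubulin or bind the cortical array also gave 0 calls by edgeR at any light time. In the list of gamma-tubulin and nucleation factors, 4 of 5 genes were tested, with a median of -0.75 at 360 min and 0 at an unadjusted p below 0.05. Of the tubulin folding cofactors, which assemble the alpha-beta dimer, 4 of 5 were tested, with a median of -1.06 and 2 lower at an unadjusted p below 0.05, the level that 8.67% of all genes reached in this direction. Of 17 cortical array and microtubule-associated genes 16 were tested, with a median of -0.10 and 0 at that level in either direction, and values from -1.002 to 0.88.

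**Figure D5:**
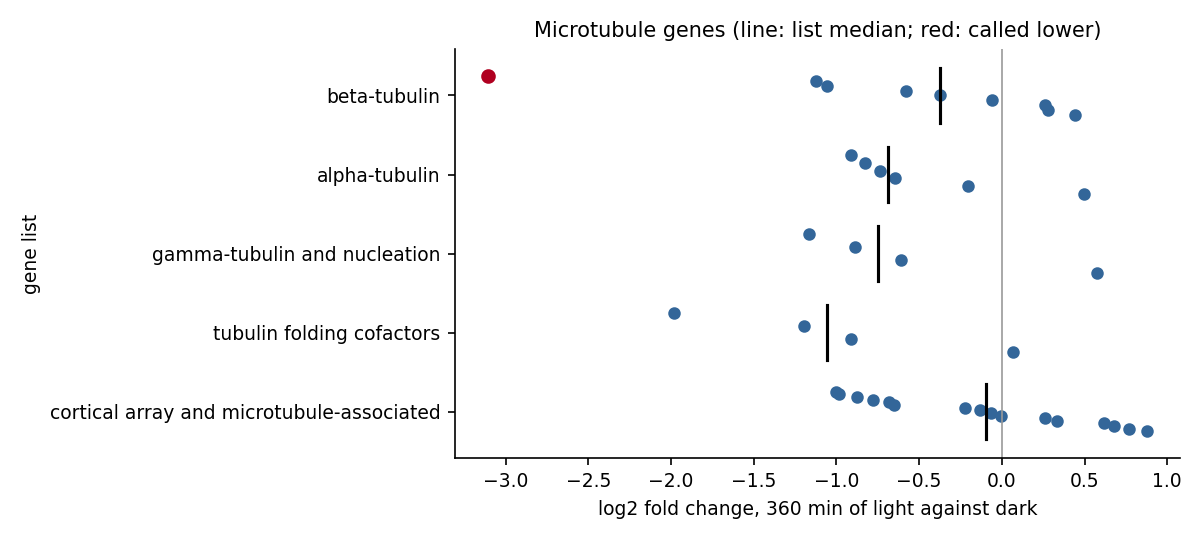
Log2 fold change at 360 min of WL against the dark (horizontal axis) for each tested gene of the beta-tubulin family and 4 lists of partner genes, 1 point per gene, with a line at each median. TUB1 in red (-3.11) is the 1 called gene, and the medians are -0.37 for beta-tubulin, -0.69 for alpha-tubulin, -0.75 for nucleation, -1.06 for folding cofactors and -0.10 for cortical array genes.

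TUB6 is listed with 3 transcripts, TUB5, TUB7 and TUB8 with 2 each and the others with 1. AT5G12250.1 took a mean of 87.5% of the TUB6 TPM in the dark (62.6% to 100%) and 34.4% at 360 min (0% to 61.7%), while AT5G12250_c2 went from 12.5% (0% to 37.4%) to 64.4% (34.9% to 100%). For AT5G12250.1 the 3 libraries at 360 min lay below the 3 dark ones by a narrow margin (at most 61.7% against at least 62.6%). How many of all transcripts did so was not computed. Single libraries at 150 and 360 min stood at 0% and 100%, so the division between these transcripts was poorly resolved, and no test was made. For TUB8, AT5G23860_P1 took a mean of 99.3% in the dark (97.9% to 100%) and 91.3% at 360 min (73.9% to 100%).

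The 250 bases before the annotated start were read for the 3 genes whose light libraries all lay below the dark ones at 150 and 360 min, because these genes moved in the same direction. They are TUB1 (chr1:28453821-28454070, minus strand), TUB6 (chr5:3963625-3963874, minus strand) and TUB8 (chr5:8042603-8042852, plus strand), from TAIR10.1. Capitals mark E-boxes, CANNTG, the general form of the sites that basic helix-loop-helix factors such as the PIFs bind.
TUB1: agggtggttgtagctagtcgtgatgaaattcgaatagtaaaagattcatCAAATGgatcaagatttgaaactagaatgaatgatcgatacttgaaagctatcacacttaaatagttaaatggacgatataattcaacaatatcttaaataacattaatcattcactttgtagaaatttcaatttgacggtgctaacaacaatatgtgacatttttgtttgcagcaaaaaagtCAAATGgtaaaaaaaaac
TUB6: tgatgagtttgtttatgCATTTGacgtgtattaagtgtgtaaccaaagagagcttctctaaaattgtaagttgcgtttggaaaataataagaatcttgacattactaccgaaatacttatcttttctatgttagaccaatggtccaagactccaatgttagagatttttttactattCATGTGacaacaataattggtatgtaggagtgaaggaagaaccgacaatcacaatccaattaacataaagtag
TUB8: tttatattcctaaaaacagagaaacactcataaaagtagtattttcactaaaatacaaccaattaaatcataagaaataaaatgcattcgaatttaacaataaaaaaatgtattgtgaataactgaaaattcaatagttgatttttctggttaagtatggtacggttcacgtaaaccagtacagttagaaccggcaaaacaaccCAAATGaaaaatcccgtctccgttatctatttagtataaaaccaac
Positions are counted back from the annotated start and searched on both strands. The E-boxes began at -201 and -18 in TUB1, at -233 and -73 in TUB6 and at -46 in TUB8. The site at -73 in TUB6 is a PBE-box (CATGTG or its complement CACATG), and TUB1 and TUB8 held none. No promoter of the 3 held a G-box (CACGTG). Every G-box and PBE-box is also an E-box.

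TUB2 and TUB3, whose libraries overlapped the dark range at all 5 light times, each held 2 PBE-boxes, at -200 and -136 in TUB2 and at -224 and -160 in TUB3, and TUB7 held a G-box at -234. TUB4, TUB5 and TUB9 each held 1 E-box of another kind. Of 27443 promoters of the same length, 55.3% held an E-box, 11.1% a PBE-box and 6.49% a G-box. These matches describe the letters and no binding was measured here.

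The 5 genes whose course was most like that of TUB1, by Pearson's r of log2 normalized counts over 18 libraries among 16370 genes, were AT1G62610 (0.959), AT3G08030 (0.940), HMGS (AT4G11820, 0.938), NCBP (AT5G18110, 0.938) and RCAR3 (AT5G53160, 0.931). HMGS encodes an enzyme of the mevalonate pathway and RCAR3 a receptor of the hormone abscisic acid. AT1G62610 had 339 ± 214 normalized counts in the dark and 42.1 ± 34.1 at 360 min (SD, n = 3). Correlations over the 18 libraries take in differences between replicates as well as the course over time. For TUB6 they were BGAL10 (AT5G63810, 0.942), BETA-TIP (AT1G17810, 0.918), AT4G25260 (0.912), PDS1 (AT1G06570, 0.906) and MLO4 (AT1G11000, 0.898). PDS1 encodes an enzyme of tocopherol and plastoquinone synthesis, and it went from 4791 ± 305 in the dark to 1870 ± 487 at 360 min (SD, n = 3). BETA-TIP, a channel of the vacuolar membrane, went from 422 ± 94.6 to 22.5 ± 3.03. These likenesses are descriptions with no test.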

How the data were processed

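RNA was sequenced from 18 libraries of whole seedlings in 6 groups of 3, taken from the sample labels. The labels and the paper's methods differ in the light intensity and in the library protocol, and no value here uses either. The authors assigned reads with kallisto to the AtRTD2-QUASI transcriptome (genome build not given in the sources used here) and deposited estimated counts, which are not normalized, and TPM for 82190 transcripts in each library. The submitters' processing notes also name DESeq 1.36.0 and edgeR 3.26.8. A further table that the authors deposited holds a normalized signal for each gene, which is the sum of its estimated counts over a size factor of the library. Of its values, 100% were whole reads at a tolerance of 0.01, and 99.9% or more of them equalled the summed estimated counts. The edgeR test on those reads called 854 genes over the time course.

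From the deposited estimated counts and TPM, length-scaled gene counts were made and rounded. The low-count filter of the paper's methods (no time point with 2 or 3 empty libraries) left 16747 genes. Counts were normalized by TMM and fitted with edgeR 4.0.16 (robust quasi-likelihood, R 4.3.3, limma 3.58.1) over all 18 libraries, with Benjamini-Hochberg adjustment over all genes tested and a threshold of 0.01. The common spread between replicates was 0.540 of the mean. Replicates differed by chi-square values of 17.6 to 108.6 per degree of freedom, so no library was counted as a repeat. Limits for a count of 0 (3 counts) cover counting error only. The methods were tested on simulated data.

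The members and lists were chosen with earlier results of these data known. Named genes were all 9 members, any partner gene called against the dark, and for TUB1 and TUB6 the 5 genes most correlated among genes averaging 10 or more normalized counts. Partner genes of the alpha-tubulin list and the genes overlapping members were named after their values were seen. Alternatives were summed counts, other scalings, DESeq2 1.42.0, other filters, a replicate term, dark with 1 light group, each library left out and, added after the data were seen, recovered reads, the plastid 23S share as a covariate, the libraries of high share left out, and TUB2 and TUB3 summed. Sequences and positions are from RefSeq's TAIR10.1 assembly. Protein sequences were not used here.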

Additional observations from a re-analysis of the deposited data

Results flagged for a closer look

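TUB1 was the 1 member whose late light level differed from its early light level by a test of the difference itself. Between 360 and 15 min of WL the log2 fold change was -3.15 (SE 0.65, edgeR adjusted p = 0.00257), where 0.675% of all genes tested were called lower in this comparison. Its mean was 22.3 normalized counts at 360 min and 217 at 15 min. The next member was TUB6, with -1.23 and an edgeR adjusted p of 0.0157, which did not pass.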

How the results depend on the processing

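TUB1, TUB6 and TUB8 were lower at 360 min than in the dark under every alternative tried. TUB1 passed the threshold there in 10 of 13 alternatives and in 15 of 18 fits with a library left out. The 13 are not independent of each other or of the main fit. Summing TUB2 and TUB3 leaves the counts of TUB1 unchanged, and the recovered reads nearly repeat the summed estimated counts. The count of members called over the time course, 2, was 0 with library totals, 1 with no filter on low counts, 0 without the 4 libraries above 75% plastid 23S share (which leaves 1 library at 360 min, assumed to vary like the other groups), and 0 to 2 when single libraries were left out. The count called lower at 150 min, 0, was 2 with DESeq2 (edgeR gave 3 at an unadjusted p below 0.05) and 1 with the plastid 23S share as a covariate. Over all genes tested, the number called lower at 150 min was 94 in the main fit, 216 with DESeq2 and 188 with the covariate. The count called lower at 360 min, 1, was 0 with library totals and 0 with only dark and 360 min libraries. It was 2 with totals that leave out plastid 23S, 2 with DESeq2 and 2 with the covariate. With single libraries left out it was 0 to 2 (0 without dark replicate 1, dark replicate 2 or 360 min replicate 2, and 2 without 60 min replicate 3). Without the 4 libraries, which leaves 1 at 360 min, the log2 fold change of TUB1 there was -2.54. Over all genes tested, the number called lower at 360 min was 136 in the main fit and 0 with library totals. It was 39 of 17820 genes with only dark and 360 min libraries. It was 182 with totals that leave out plastid 23S, 343 with DESeq2 and 334 with the covariate. Library totals include the plastid RNA and moved the median of all genes at 360 min to -0.65, and totals without plastid 23S moved it to -0.39, with 20 and 634 genes called over the time course in place of 840 (1699 with DESeq2 and 1234 with the covariate).

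Signs turned only for values that were not called. At 360 min TUB5 was -0.85 with totals, -0.17 with totals without plastid 23S and -0.50 without the 4 libraries. TUB7 was -0.0235 with summed counts, -0.36 and -0.10 with the same 2 totals and -0.0237 with recovered reads, and its share rose by 0.915 in place of 2.45 percentage points when taken over estimated counts. TUB9 was -0.65 with totals and -0.32 without the 4 libraries. At 15 min TUB1 was -3e-04 and -0.0299 with the 2 totals and TUB8 was 0.0332 with totals. With single libraries left out, TUB2 at 360 min ranged from -0.26 to 0.22, TUB5 at 360 min from -0.18 to 0.54, TUB1 at 15 min from -0.34 to 0.51 and at 30 min from -0.30 to 0.55, and TUB8 at 15 min from -0.24 to 0.20. Where no value above shows a cause, the cause was not tested.

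Libraries of equal replicate number were on average no more alike than others. The mean correlation of deviations was -0.04 for equal numbers and 0.02 for unequal ones, with a minimum of -0.41 for equal numbers. These correlations cannot show whether libraries of equal number were prepared together. With a replicate block, 0 members were called over the time course (TUB1 0.0166 and TUB6 0.0179, edgeR adjusted p), 1 remained called at 360 min, and 679 genes in all were called over the time course in place of 840. Depth limits TUB1 most, with 0 to 59 counts in a library at 360 min.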
